A study of Mus musculus with 6 samples.

Results

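The genes of NODAL, activin and BMP signalling were examined by the chromatin accessibility of the peaks assigned to them, in mouse definitive endoderm treated or not to degrade the transcription factor OTX2, whose level is not measured by these data. A list of 55 genes was used, and every row of the authors' deposited peak table whose assigned gene was on the list was taken as a member. Of the 70494 peaks of the table, 255 were assigned to 53 of the 55 genes, and Bmp4 and Tgfb2 had no row in the table used here. The median gene held 4 peaks and 7 genes held 1. No measured value entered the choice of peaks.

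Open chromatin was mapped by ATAC-seq, in which a transposase cuts and tags accessible DNA, in 6 libraries, 3 with DMSO and 3 with dTAG13. All came from 1 mouse epiblast stem cell line of mixed BL6/129 background, 7H OTX2-dTAG-EGFP, in which OTX2 carries a degradation tag and EGFP. Both groups were cultured for 16 h in Activin A at 40 ng/ml with the WNT pathway activator CHIR at 3 uM, and then for 24 h in Activin A at 100 ng/ml with LDN, an inhibitor of BMP type I receptors, at 100 nM. Both groups thus received an activin ligand and a BMP receptor inhibitor. The groups differed in the addition, at the primitive streak stage and for 24 h, of dTAG13, which directs tagged protein to degradation, or of its solvent DMSO. Live cells were sorted and 50000 went into each library. The series' design text describes the 3 libraries of a group as technical replicates, so the p-values measure the spread between repeated libraries, which need not include the spread between cultures. Of the endoderm markers, Sox17 had 2 peaks, Foxa2 1 and Gsc 4, all in the peak list of the DMSO group, as were 12 of the 13 peaks of Cxcr4. Most peaks were in that list, since 48.2% of all peaks were in the lists of both groups and 40.1% in the DMSO list alone. Presence in it thus does not set these markers apart. Accessibility does not measure expression, and the total read count of each library is unknown here.

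NODAL, activin and the TGF-beta ligands bind pairs of type I and type II receptor kinases that phosphorylate SMAD2 and SMAD3, whereas BMP ligands act through SMAD1, SMAD5 and SMAD9. Phosphorylated SMADs join SMAD4 and enter the nucleus, where FOXH1 recruits SMAD2 and SMAD3 complexes to many NODAL targets, among them Nodal, Lefty1, Lefty2 and Cer1. High NODAL activity directs cells of the streak to endoderm, and LEFTY and CER1 proteins, BMP antagonists such as Noggin, and the inhibitory SMADs limit the signal.

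The sequences of 5 of the 10 called peaks are shown, 4 lower and 1 higher with dTAG13, because the results turn on these peaks. Each is the peak's midpoint with 100 bases on either side, on the + strand of GRCm38, which is the mm10 build of the deposited files, with the core GATTA of bicoid-type homeodomain sites in capitals on either strand. The full OTX consensus searched was GGATTA, which stands in the Twsg1 and Smad1 windows and not in the other 3. The core was added to the search after the sequences were seen.
Twsg1 intron 3, chr17:65936251-65936451: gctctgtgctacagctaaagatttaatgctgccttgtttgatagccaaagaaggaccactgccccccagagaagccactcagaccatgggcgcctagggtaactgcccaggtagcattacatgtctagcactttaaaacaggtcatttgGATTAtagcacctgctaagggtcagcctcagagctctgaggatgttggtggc
Smad1 intron 1, chr8:79378901-79379101: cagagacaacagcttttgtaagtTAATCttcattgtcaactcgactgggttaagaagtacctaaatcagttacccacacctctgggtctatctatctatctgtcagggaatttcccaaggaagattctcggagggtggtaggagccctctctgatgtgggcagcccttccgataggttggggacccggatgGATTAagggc
Smad5 intron, chr13:56731916-56732116: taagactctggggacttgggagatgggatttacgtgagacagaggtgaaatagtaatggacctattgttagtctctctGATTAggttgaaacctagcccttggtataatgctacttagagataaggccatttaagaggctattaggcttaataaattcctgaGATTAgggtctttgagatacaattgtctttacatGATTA
Tgfbr2 upstream, chr9:116259676-116259876: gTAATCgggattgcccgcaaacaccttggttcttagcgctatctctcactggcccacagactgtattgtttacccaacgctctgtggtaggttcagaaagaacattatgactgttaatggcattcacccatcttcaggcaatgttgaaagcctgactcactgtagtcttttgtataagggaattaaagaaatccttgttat
Ski intron 2, chr4:155215677-155215877: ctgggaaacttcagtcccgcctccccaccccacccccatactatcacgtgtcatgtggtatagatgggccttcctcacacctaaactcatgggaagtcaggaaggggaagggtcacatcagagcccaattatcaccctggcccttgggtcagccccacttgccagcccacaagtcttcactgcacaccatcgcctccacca

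The Smad5 window held the core 3 times, the Smad1 window 2 times, the Twsg1 and Tgfbr2 windows 1 time each and the Ski window none. The windows of the called lower peaks at Smad6 and Ltbp1, not shown, held none either. Every lower window shown thus held the core, and the lower peaks shown are not those with the smallest p. The windows shown do not give the share of called peaks with the core. A second set comes from uncalled peaks at 3 genes that NODAL is known to control, chosen after the motif matches were seen, with the FOXH1 consensus TGTGGAT in capitals on either strand. It shares GGAT with the OTX consensus, so that the motifs overlap wherever TA follows the FOXH1 letters.
Nodal intron 1, chr10:61419205-61419405: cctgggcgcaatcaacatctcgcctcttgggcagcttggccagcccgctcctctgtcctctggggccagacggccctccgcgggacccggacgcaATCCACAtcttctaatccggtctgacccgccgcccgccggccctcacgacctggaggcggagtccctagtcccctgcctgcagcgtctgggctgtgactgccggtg
Cer1 upstream, chr4:82885629-82885829: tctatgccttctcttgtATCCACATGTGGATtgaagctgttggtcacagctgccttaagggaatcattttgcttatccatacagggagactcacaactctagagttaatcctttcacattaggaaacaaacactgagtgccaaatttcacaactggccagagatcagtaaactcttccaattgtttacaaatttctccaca
Lefty1 upstream, chr1:180924793-180924993: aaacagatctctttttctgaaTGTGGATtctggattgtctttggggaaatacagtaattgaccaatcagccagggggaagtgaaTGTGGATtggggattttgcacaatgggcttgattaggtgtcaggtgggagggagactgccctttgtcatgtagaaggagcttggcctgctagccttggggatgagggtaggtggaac

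In the Cer1 window 2 FOXH1 matches of opposite orientation abutted, and in the Lefty1 window 2 matches stood in the same orientation. The Nodal and Cer1 windows also each held 1 match to the OTX consensus. A match is a description of the letters, not evidence of binding.

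Few peaks of the signalling genes differed between the groups. In the authors' deposited table, a peak was called at a p below 0.05 after Benjamini-Hochberg adjustment over the table, and 10 of the 251 member peaks with an adjusted p passed, at 8 genes. This is 3.98%, against 5.26% of the 69128 peaks tested in the whole table. Lower accessibility with dTAG13 was called at 8 member peaks, against a background of 3.79%, and higher accessibility at 2, against a background of 1.47%. The share of lower calls was 3.19% and that of higher calls 0.797%, so the calls were no more frequent at these genes than over the table. In bulk cells, fewer cells with a site open and less opening per cell cannot be told apart. At an unadjusted p below 0.05 there were 37 member peaks, 22 lower and 15 higher, which is 14.5% against 19.7% of all peaks. The 4 remaining member peaks had no adjusted p, and their signal was among the weakest.

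Taken over all peaks together, the differences at the members were near those of the whole table. The log2 fold change of dTAG13 over DMSO had a median of -0.15 over the 255 member peaks and of -0.18 over all peaks, and its middle 50% lay between -0.83 and 0.32 in the members. Negative values, which stand for more signal with DMSO, were found at 155 member peaks (60.8%) and at 58.2% of all peaks. Split by distance the 2 sets lay farther apart, in opposite directions. Within 1000 bases of a start site the median was -0.12 in the members, with 62.0% negative, against 0.03 and 47.4% over the table. Farther away it was -0.21 with 60.1% negative, against -0.38 and 63.2%. The cause was not tested. When the median of all peaks was moved to 0, a shift of 0.18, 122 of the 255 were negative and 4 member peaks were called higher beside 8 called lower. Over the whole table the same step turned 2622 lower and 1016 higher calls into 2056 and 1958, so the split of the calls by direction depends on the centring.

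**Figure D1:**
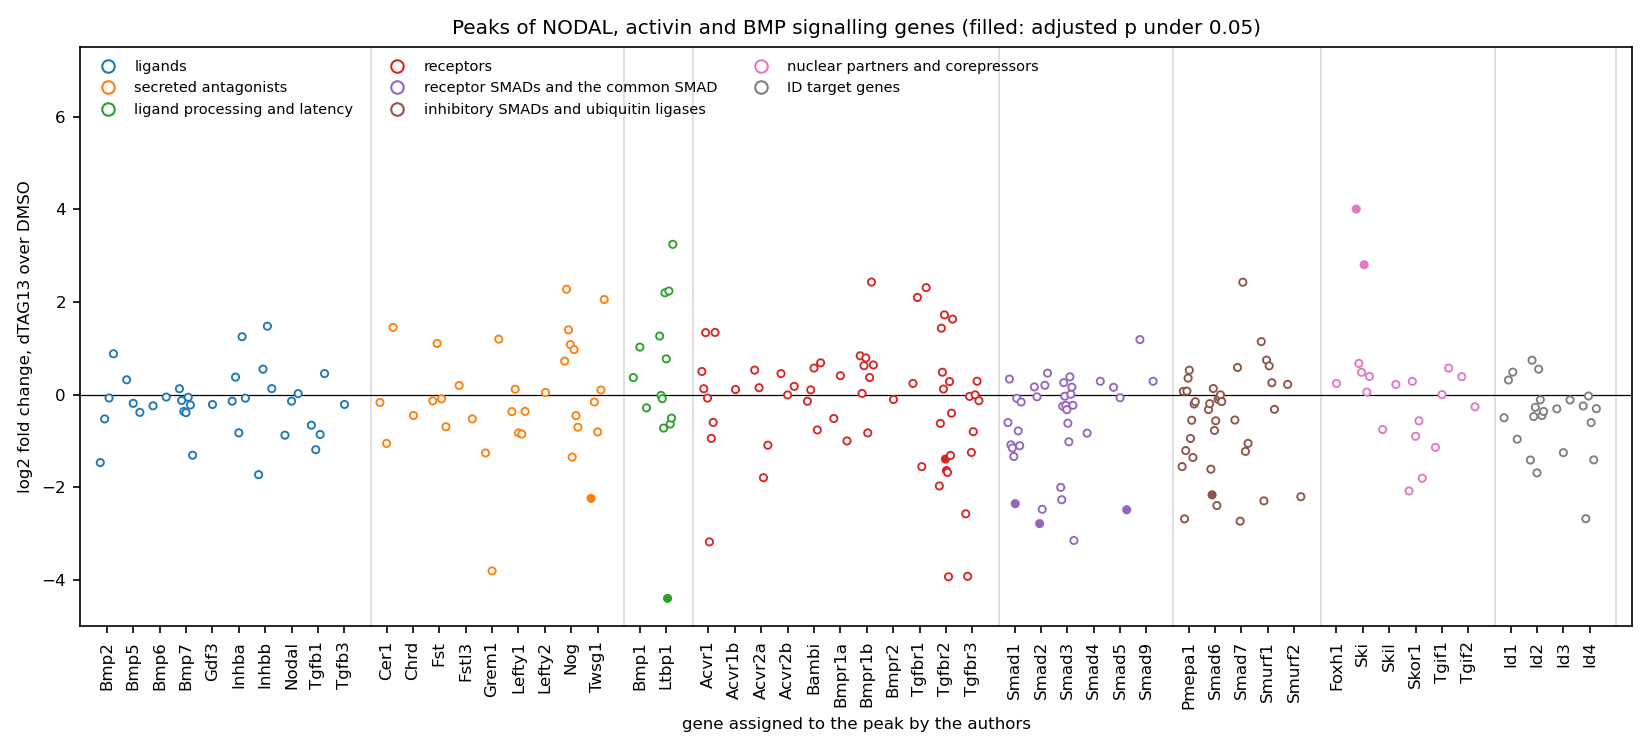
Log2 fold change of dTAG13 over DMSO (y axis) of each of the 255 peaks, by gene (x axis) and role (colour). Filled points are the 10 called peaks, 8 of them below 0 at Twsg1, Ltbp1, Tgfbr2, Smad1, Smad2, Smad5 and Smad6 and 2 above 0 at Ski. Most open points scatter around 0.

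Signal at a peak is given as the mean normalized count over the 6 libraries, the only measure of signal per peak in the authors' deposited table, which gives no values per library. The level of each group was computed from this mean and the fold change for groups of equal size. These implied group means carry no spread of their own, and the standard error (SE) of the log2 fold change is the error used below. At 55 of the 255 peaks the lower group was under 3 normalized counts per library. The 3 called peaks among them are given a fold change as a lower bound against that floor, taking normalized counts as near to reads. It bounds the estimate only and leaves out the error that the SE measures, so the true change can be smaller. For the 52 uncalled ones, which include many ends of the ranges given below, only the fitted log2 value of the authors' deposited table is given, and it is neither a size nor a bound. With such peaks at their bound, the median log2 fold change was -0.12 in the members and -0.11 over all peaks.

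The peaks at start sites held few calls in the table as a whole. A midpoint within 1000 bases of an annotated start site was found for 92 member peaks. Of the 90 tested 0 were called in the authors' deposited table, against 2.28% of such peaks in the table. An unadjusted p below 0.05 was found for 7 of the 92 (7.61%), against 12.8% of such peaks in the table. A called Smad5 peak lay 1001 bases from a start site, just past that distance, and by the authors' own annotation it was the 1 call among the 87 tested peaks within 1 kb of a promoter. A count of 0 or 1 is near the background share and is no feature of the members. Of the 161 tested peaks farther away 6.21% were called, against 6.68% in the table. The strongest peak of each of the 53 genes was annotated as lying within 1 kb of a promoter for 37 genes. Its log2 fold change had a median of -0.06 and was within 0.5 of 0 for 46 genes, and 1 of the 53, at Twsg1, was called. Skil, a SMAD corepressor, had the strongest member peak, with a mean normalized count of 119 and a log2 fold change of 0.22 (SE 0.18).

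**Figure D2:**
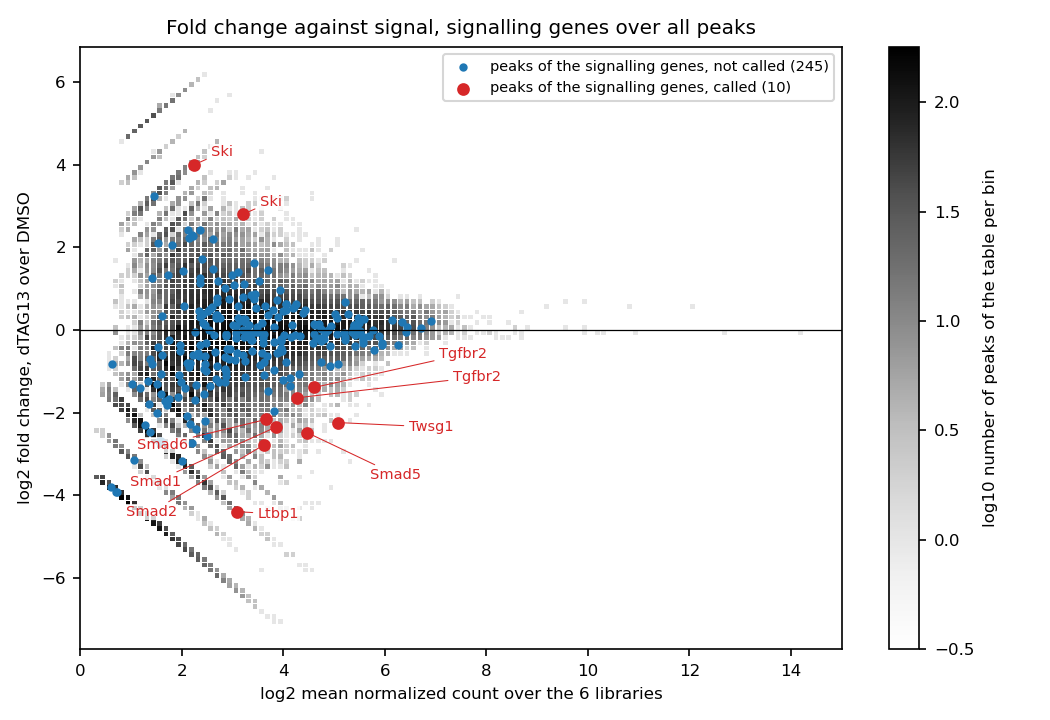
Log2 fold change of dTAG13 over DMSO (y axis) against the log2 mean normalized count over the 6 libraries (x axis). Grey squares show the number of peaks of the whole table per bin, blue points the 245 member peaks without a call and red points the 10 called, whose mean normalized counts lie between 4.74 and 33.7.

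The ligands carried no call in their 34 peaks, which belonged to 10 of the 12 ligand genes. With 5.26% of peaks called over the table, 0 calls in 34 peaks does not set the ligands apart. Nodal, the ligand that patterns the streak, had 3 peaks. Its peak 11.7 kb upstream had implied means of 39.0 with DMSO and 21.2 with dTAG13 and did not pass, at -0.88 ± 0.37 (SE) on the log2 scale and an adjusted p, as the authors' deposited table gives it, of 0.143. The intron 1 peak with the FOXH1 match, shown above, had 26.5 and 26.8, and the peak at the start site 20.9 and 19.0. The groups were thus close at the latter 2 Nodal peaks and farther apart at the upstream one.

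Bmp2, a BMP ligand, held the ligand peak with the smallest p. It lay 5.1 kb upstream, on chromosome 2 between 133547005 and 133547186, with implied means of 18.9 and 6.84, and the authors' deposited table gives a log2 fold change of -1.47 ± 0.56 (SE) with an adjusted p of 0.0963. At the Bmp2 start site the means were 37.4 and 35.5. Bmp7, another BMP ligand, had the strongest ligand peak, with a mean of 85.2 and a log2 fold change of -0.06. Inhba and Inhbb encode the activin subunits, and their 9 peaks ranged in log2 fold change from -1.73 to 1.47 with none called. Gdf3, which encodes a NODAL-related ligand, had 1 peak, at -0.20 (SE 0.35).

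The secreted antagonists had 32 peaks at 9 genes and 1 call, which is 3.23% of the 31 tested against 5.26% over the table. That call, in the authors' deposited table, was the most significant of all member peaks. It lay in intron 3 of 4 of Twsg1, which encodes the BMP-binding protein twisted gastrulation, on chromosome 17 between 65936087 and 65936614. Its implied means were 55.7 with DMSO and 11.8 with dTAG13, a difference that the authors' deposited table lists as -2.24 ± 0.38 (SE) on the log2 scale at an adjusted p of 8.7e-06. It was the strongest of the 5 Twsg1 peaks and was in the peak lists of both groups, so it was reduced and not lost. The other 4 Twsg1 peaks ranged from -0.81 to 2.05, and the one at the start site had implied means of 29.8 and 31.8.

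Lefty1, Lefty2 and Cer1 encode secreted inhibitors that bind NODAL or its co-receptors, and none of their 9 peaks was called in the authors' deposited table. Lefty1 had 5 peaks within 10.1 kb upstream of its start. The one at 5.1 kb had implied means of 43.0 and 24.2, and the authors' deposited table gives a log2 fold change of -0.83 ± 0.31 (SE) with an adjusted p of 0.0868. The one at 10.1 kb, which holds 2 FOXH1 matches, had 86.7 and 67.1, a log2 fold change of -0.37 (SE 0.22). Of the 5 Lefty1 values 4 were negative, and 3 were when each of 10 groups of peaks by GC content was centred on its own median. Under that GC centring the peak 8.5 kb upstream was called higher, at a log2 fold change of 0.85 and an adjusted p of 0.0389, against 0.11 in the authors' deposited table. The 5.1 kb peak was called lower, with an adjusted p of 0.048, when the peaks in both lists were centred, and had 0.197 with all peaks centred and 0.366 under the GC centring. Lefty2 had a single peak, 4.3 kb upstream with 1 FOXH1 match, and implied means of 84.1 and 88.0.

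Cer1 had 3 peaks within 1.1 kb upstream of its start, and they pointed in different directions. The farthest had implied means of 6.97 and 19.0, a difference that the authors' deposited table lists as 1.45 ± 0.52 (SE) on the log2 scale at an adjusted p of 0.078. The middle one, with the paired FOXH1 matches and 1 OTX match, had 26.6 and 12.8, and the authors' deposited table gives a log2 fold change of -1.05 ± 0.43 (SE) with an adjusted p of 0.126. The one at the start had 39.2 and 34.8. None of the 3 passed, and the farthest had an adjusted p of 0.0395 when the median of all peaks was moved to 0, 0.00336 under the GC centring and 0.101 when the peaks in both lists were centred.

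Nog encodes the BMP antagonist Noggin, and its 8 peaks also pointed both ways and none was called. The one of smallest p, 20.9 kb downstream of the start, holds an OTX match and had implied means of 25 and 9.81, a difference that the authors' deposited table lists as -1.35 ± 0.47 (SE) on the log2 scale at an adjusted p of 0.0657. The adjusted p was 0.0437, past the threshold, when the median of the peaks in both lists was moved to 0, but 0.116 with that of all peaks at 0 and 0.399 under the GC centring, where the log2 fold change was -0.73. Of the other 7 Nog peaks 5 had positive values, up to 2.27, and 4 of these were in the dTAG13 peak list alone. Chrd, which encodes the BMP antagonist Chordin, had 1 peak, at -0.44 (SE 0.45). Fst encodes the activin-binding protein follistatin, and its 4 peaks lay between -0.70 and 1.10.

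**Figure D3:**
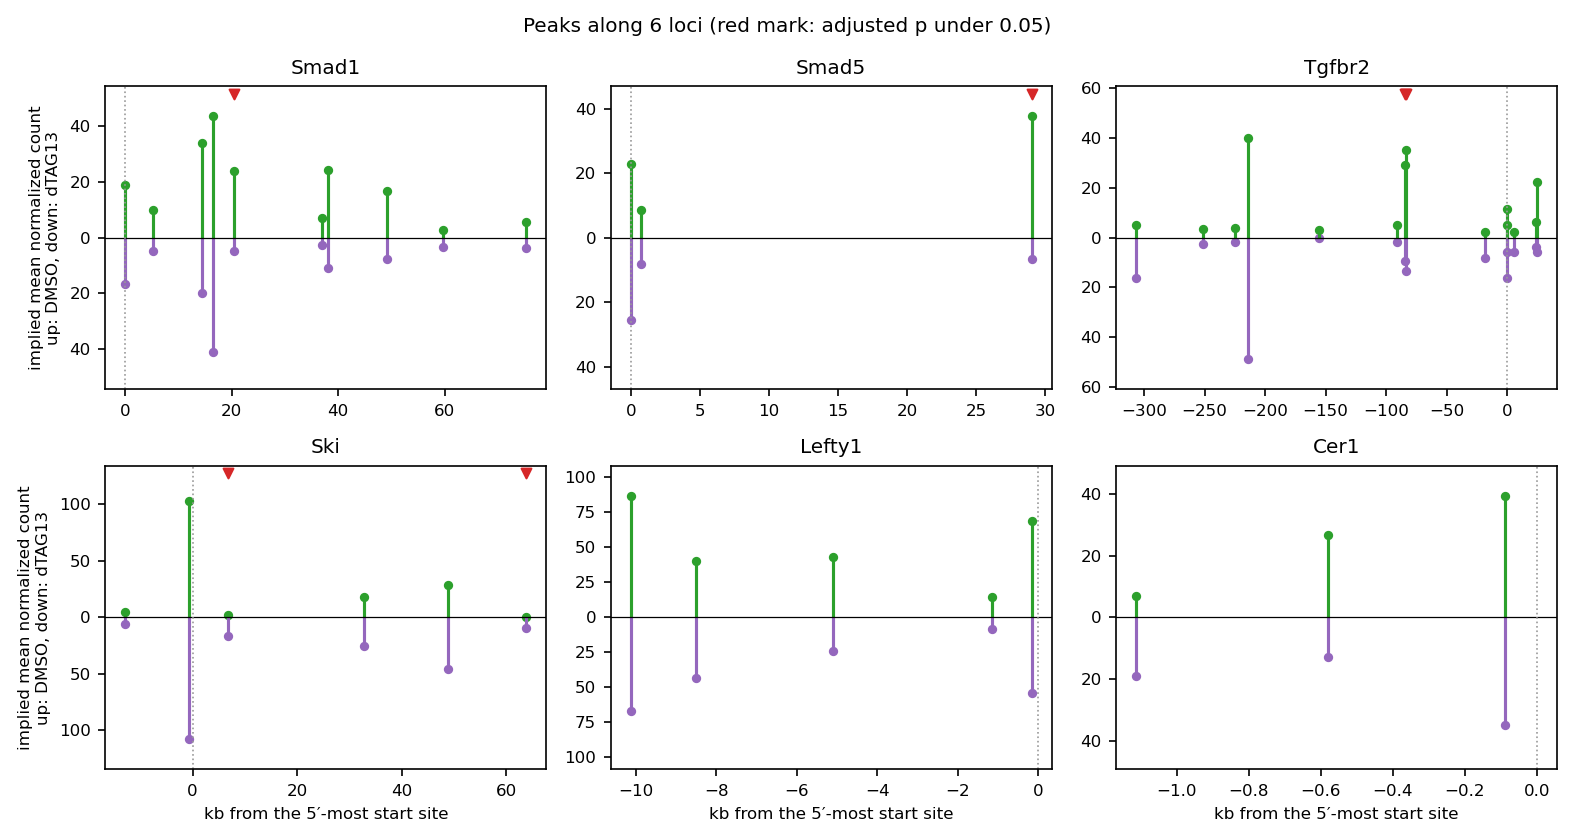
Implied mean normalized count with DMSO (green, upwards) and dTAG13 (purple, downwards) of each peak at 6 genes (y axis), against the distance in kb from the gene's 5′-most start site (x axis, negative upstream). Red marks show the called peaks, 1 each at Smad1 and Smad5, 2 adjacent ones at Tgfbr2 that share a mark, 2 at Ski and none at Lefty1 and Cer1.

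Of the 14 tested peaks of the genes that process or store ligands, 1 was called (7.14%, against 5.26% over the table), at Ltbp1. It encodes a protein that holds latent TGF-beta in the matrix, and the called peak lay in intron 3 of 33, on chromosome 17 between 75082726 and 75082971. Its implied means were 16.2 with DMSO and 0.77 with dTAG13, an estimate at least 5.40-fold lower with dTAG13. The authors' deposited table gives a log2 fold change of -4.40 ± 1.15 (SE) with an adjusted p of 0.00832. The other 10 Ltbp1 peaks ranged from -0.72 to 3.24 with no call, and 3 of them, at 2.20, 2.23 and 3.24, had an unadjusted p below 0.05. Bmp1, whose product is a protease of the BMP and matrix pathways, had 3 peaks between -0.29 and 1.02.

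The receptors, with the decoy receptor gene Bambi, held 59 peaks at 11 genes and 2 calls, both at Tgfbr2, the TGF-beta type II receptor gene. This is 3.51% of the 57 tested, against 5.26% over the table. The called peaks were neighbours about 84 kb upstream, on chromosome 9 at 116259190 to 116259442 and 116259568 to 116259983. The first had implied means of 35.2 and 13.4, a difference that the authors' deposited table lists as -1.39 ± 0.39 (SE) on the log2 scale at an adjusted p of 0.0144. The second had 29.1 and 9.32, and the authors' deposited table gives a log2 fold change of -1.64 ± 0.46 (SE) with an adjusted p of 0.0152. Both were in the peak lists of both groups, and the start site nearest to them was that of Gm31410, not of Tgfbr2. Both lost their call under the GC centring, with adjusted p of 0.0798 and 0.245.

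The other 12 Tgfbr2 peaks ranged from -3.93 to 1.72. The farthest upstream, at 306 kb, had implied means of 5.23 and 16.2, a difference that the authors' deposited table lists as 1.63 ± 0.58 (SE) on the log2 scale at an adjusted p of 0.075. This peak was called higher, with adjusted p of 0.0404 and 0.00802, when the median of all peaks was moved to 0 and under the GC centring, but not when the peaks in both lists were centred (0.0944). The strongest, 214 kb upstream, had 40.2 and 48.8, and the peak at the start had 11.6 and 16.1. Assignment over such distances rests on the authors' choice of the nearby gene. Over all members, the nearest start site was of the assigned gene at 212 of the 255 peaks (83.1%).

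The receptors for activin and NODAL had no call. The start-site peak of Acvr1b, the activin type I receptor gene, had a log2 fold change of 0.11 (SE 0.30) in the authors' deposited table. Acvr2a had 4 peaks between -1.80 and 0.53, and Acvr2b had 3 between -0.01 and 0.45. Taking the gene of the nearest start site in place of the authors' gene gave Acvr2b a called peak on chromosome 9 between 119425427 and 119425635. Its implied means were 1.87 and 19.0, an estimate at least 6.32-fold higher with dTAG13. The authors' deposited table gives a log2 fold change of 3.34 ± 0.72 (SE) with an adjusted p of 8.99e-04. Among the BMP receptor genes, Bmpr1b had positive values at 7 of its 8 peaks, and at 6 when the peaks in both lists were centred, and the highest, 2.43 in the authors' deposited table, had an adjusted p of 0.0967. Bmpr1a, Bmpr2 and Acvr1 had 3, 1 and 8 peaks, none called.

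**Figure D4:**
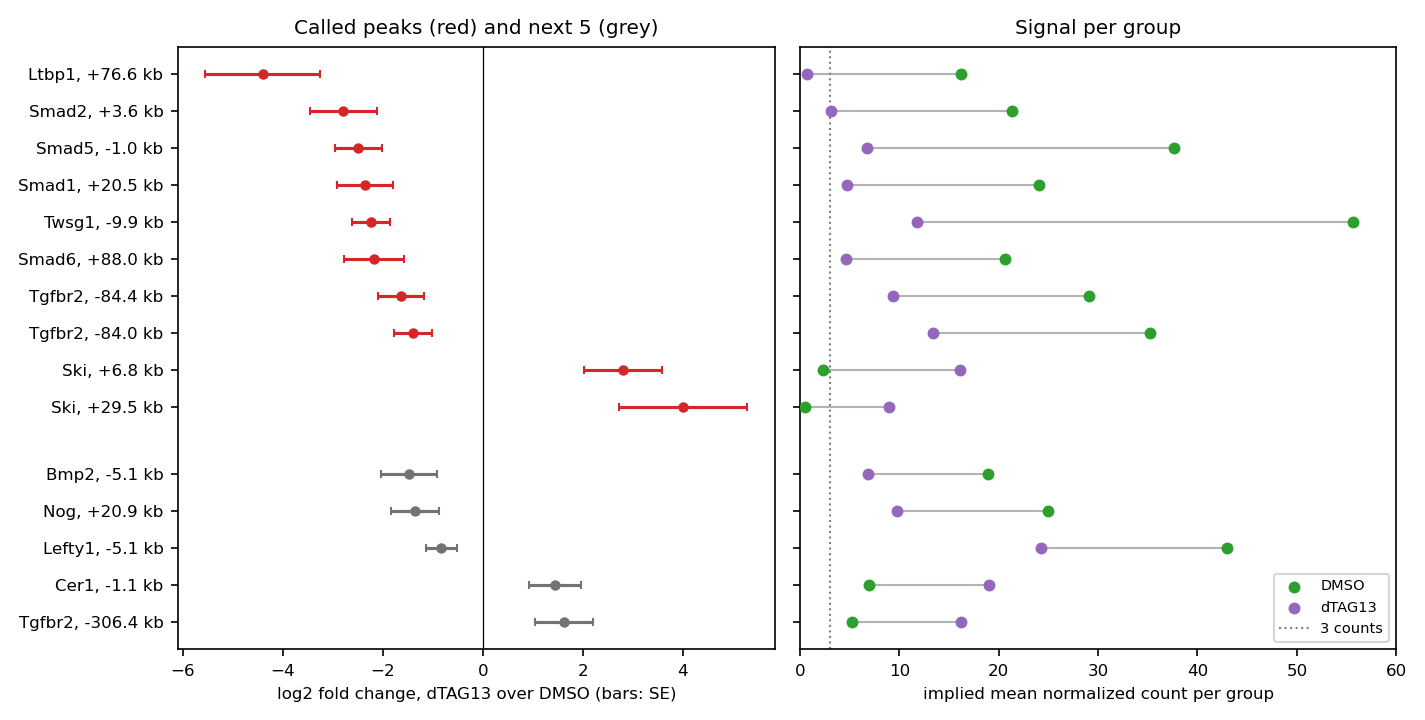
Left, the log2 fold change of dTAG13 over DMSO with its standard error for the 10 called peaks (red) and the 5 uncalled peaks with the smallest p (grey), each labelled with its distance from the nearest start site of its gene. Right, the implied mean normalized count with DMSO (green) and dTAG13 (purple), which ranges from 0.56 to 55.7 over the called peaks, with 3 counts as a dotted line.

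The SMADs that carry the signal had 37 peaks at 6 genes and 3 calls, all lower with dTAG13. This is 8.33% of the 36 tested, against 3.79% called lower over the table. A count of 3 is too small to set these genes apart. They fell on Smad1 and Smad5, which act for BMP, and on Smad2, which acts for NODAL and activin. Smad5 held the most significant of these. The peak lay on chromosome 13 between 56731821 and 56732210, inside an intron 29.0 kb from the gene's first start site, where an internal start site lies 1001 bases away and the authors annotate a promoter. Its implied means were 37.6 and 6.71, a difference that the authors' deposited table lists as -2.49 ± 0.47 (SE) on the log2 scale at an adjusted p of 7.81e-05. At the first start site of Smad5 the means were 22.8 and 25.4.

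The called Smad1 peak lay in intron 1 of 6, 20.5 kb from the start, on chromosome 8 between 79378889 and 79379113. Its implied means were 24.0 and 4.70, and the authors' deposited table gives a log2 fold change of -2.36 ± 0.56 (SE) with an adjusted p of 0.00321. Of the 10 Smad1 peaks 9 had negative values, and 7 to 9 did under the 3 other centrings. The strongest Smad1 peak, also in intron 1 and 16.4 kb from the start, had 43.4 and 41.1, and the peak at the start 18.8 and 16.8. The 9 uncalled Smad1 peaks lay between -1.34 and 0.33.

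The called Smad2 peak lay in intron 1 of 10, on chromosome 18 between 76245695 and 76245880. Its implied means were 21.3 and 3.09, a difference that the authors' deposited table lists as -2.79 ± 0.67 (SE) on the log2 scale at an adjusted p of 0.0034. The 2 peaks nearest the Smad2 start had log2 fold changes of 0.16 and -0.05. Smad3, the partner of Smad2, had 14 peaks from -3.15 to 0.38 and no call. Smad4, which encodes the shared SMAD, had a start-site peak at 0.29 (SE 0.32). Smad9 had 2 peaks, at 1.19 and 0.29.

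The inhibitory arm held 38 peaks at 5 genes and 1 call, which is 2.63% against 5.26% over the table. The called peak lay 88.0 kb downstream of the nearest Smad6 start, on chromosome 9 between 63928804 and 63929081. Smad6 blocks BMP-activated SMADs. The implied means were 20.6 and 4.60, and the authors' deposited table gives a log2 fold change of -2.16 ± 0.60 (SE) with an adjusted p of 0.0145. The nearest start site was that of Gm36033. The other 11 Smad6 peaks ranged from -2.40 to 0.13, with the 2 strongest, next to the start, at -0.15 and -0.01. Negative values were found at 11 of the 12 Smad6 peaks, but at 7 when the median of all peaks was moved to 0. The count was 11 when the peaks in both lists were centred and 10 under the GC centring. For at most 5 of the 12 was the nearest start site that of Smad6.

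Smad7, which blocks both arms of the pathway, had 6 peaks between -2.73 and 2.42, and Pmepa1, a transmembrane inhibitor of the TGF-beta arm, had 12 between -2.68 and 0.52. Smurf1 and Smurf2 encode ubiquitin ligases that act on SMADs and receptors. Their 8 peaks ranged from -2.30 to 1.14 in the authors' deposited table. None of these 26 peaks was called.

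The nuclear partners and corepressors held 19 peaks at 6 genes and the only 2 member peaks that were called higher with dTAG13. Both lay in introns of Ski, a corepressor of SMAD complexes. Both were in the dTAG13 peak list alone, as were 584 of the 1016 peaks called higher in the table. The first, on chromosome 4 between 155215727 and 155215826, had implied means of 2.31 and 16.1, an estimate at least 5.38-fold higher. The authors' deposited table lists this difference as 2.80 ± 0.78 (SE) on the log2 scale at an adjusted p of 0.0147. The second, between 155158732 and 155158812, had 0.56 and 8.93, an estimate at least 2.98-fold higher. For this second peak the authors' deposited table gives a log2 fold change of 4.0 ± 1.29 (SE) with an adjusted p of 0.0415. It was left out, and so lost, when a mean of at least 5 was required. All 6 Ski values were positive, and 5 were when the peaks in both lists were centred. The promoter peak of Ski had 103 and 107, and was not called.

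Foxh1, the gene of the NODAL cofactor, had 1 peak, at 0.26 (SE 0.60) in the authors' deposited table. Skil, the paralogue of Ski, had 2 peaks, at -0.75 and 0.22. The corepressor genes Tgif1, Tgif2 and Skor1 had 10 peaks between -2.08 and 0.57. None was called.

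The ID genes, which encode inhibitors of bHLH factors and are textbook BMP targets, had 22 peaks at 4 genes and no call. With 22 peaks, 0 calls does not set them apart from the 5.26% called over the table. Negative values were found at 18 of the 22 (81.8%) with a median of -0.34 in the authors' deposited table. The count was 15 when the median of all peaks was moved to 0 and under the GC centring, and 18 when the peaks in both lists were centred. The nearest start site was that of Id2 for at most 4 of its 9 peaks and that of Id4 for at most 1 of its 6. The start-site peaks of Id2 and Id4 were at -0.48 ± 0.26 (SE) and -0.30 ± 0.23 (SE) on the log2 scale. The range over the 22 ID peaks was from -2.68, at a weak peak 76.4 kb upstream of Id4, to 0.74 at Id2.

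The presence of the member peaks in the authors' peak lists was close to that of all peaks. Each list was called on the pooled libraries of a group. By an overlap of at least 1 base, 134 of the 255 (52.5%) were in both lists, 90 (35.3%) in the DMSO list alone and 31 (12.2%) in the dTAG13 list alone. The shares over all peaks were 48.2%, 40.1% and 11.8%. Of the 8 lower peaks 5 were in the DMSO list alone and 3, at Twsg1 and Tgfbr2, in both. Among all peaks, 2622 were called lower, of which 2279 were in the DMSO list alone and 343 in both. A count of 8 is too small to compare the splits.

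The authors' deposited table also marks genes with 2 columns whose headers name down-regulated and up-regulated genes and whose origin is not stated in the sources used here. Ltbp1, Bambi, Id1 and Id3 were marked down, which is 4 of 53 (7.55%) against 1.38% of the 26796 genes of the table. Id4, Fst and Bmp1 were marked up, which is 3 of 53 (5.66%) against 1.60%. Of the 23 peaks of the genes marked down 1 was called, the Ltbp1 peak, and of the 13 peaks of the genes marked up 0 were. Id4, marked up, had 6 peaks with negative values, 5 when the median of all peaks was moved to 0, and none called.

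The sequence windows of the member peaks were searched for 7 motifs on both strands. GGATTA, the OTX consensus, stood in 17 of the 255 windows (6.67%, Wilson 95% interval 4.20 to 10.4) and in 8.85% of all windows, and its reversed order ATTAGG, a control, in 7.45% and 7.09%. The windows reach 100 bases to either side of the midpoint, whereas the median member peak was 132 bases long, so a match can lie outside the peak. Among the 8 lower member peaks 2 held the consensus, against 34.1% of all lower peaks of the table. The reversed control also stood in 2 of these 8, against 16.1% of all lower peaks. The core GATTA stood in 6 of the 8, against 58.4% of all lower peaks and 21.8% of all windows. With 8 peaks the interval of that share runs from 40.9% to 92.9%. Within 50 bases of the midpoint the core stood in 2 of the 8, against 39.8% of all lower peaks, and the consensus in 0 of the 8, against 21.3%. Member peaks with the consensus had a median log2 fold change of -0.83 and were negative in 14 of 17 cases, against -1.31 and 82.7% for all peaks with it in the authors' deposited table.

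The SMAD motif known as the GC box, GGCGCC, stood in 14.5% of member windows (Wilson 95% interval 10.7 to 19.4) and 8.11% of all, and the member windows had a median GC content of 55.7% against 53.2%. Near start sites the GC box stood in 26.1% of member windows against 17.6%, and farther away in 7.98% against 3.68%. The other SMAD motif, the CAGA box CAGACA, stood in 21.2% (16.6 to 26.6) against 17.4%, which lies inside that interval. The FOXH1 consensus TGTGGAT stood in 2.75% against 2.94%, the GATA motif AGATAA in 16.1% against 15.7% and the TEAD motif GGAATG in 14.5% against 11.6%. Windows of 1 gene share a locus, and no test was made of these shares. The part of GC content in them was not tested.

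**Figure D5:**
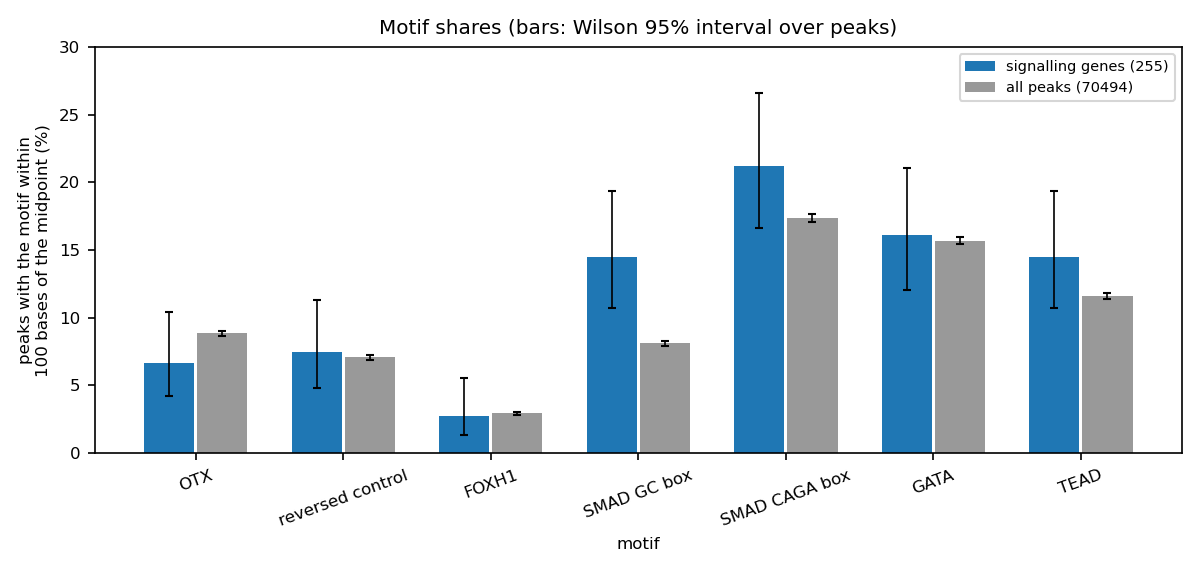
Share of windows within 100 bases of the peak midpoint that hold each motif (y axis, percent), for the 255 member peaks (blue) and all 70494 peaks (grey), with Wilson 95% intervals over peaks. The GC box stands apart, at 14.5% against 8.11%, and the OTX consensus is at 6.67% against 8.85%.

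A further 52 genes of the wider pathway, among them other receptors, co-receptors, proprotein convertases and targets, gave 210 peaks at 48 genes. Of the 209 tested 11 (5.26%) were called in the authors' deposited table, 6 lower and 5 higher, the same share as over the table. The lower peaks were at Acvrl1, Bmper, Nedd4l, Pcsk6, Rgma and Skor2, and the higher ones at Bmper, Msx1, Pcsk6 and Map3k7. At Acvrl1, Nedd4l, Rgma, Msx1, both Pcsk6 peaks and the higher Bmper peak, 1 group was under 3 normalized counts per library. With a mean of at least 5 required, 8 peaks were called, 4 lower and 4 higher. Map3k7 encodes the kinase TAK1 and held 2 of the higher peaks, at 1.54 ± 0.37 (SE) and 1.78 ± 0.49 (SE) on the log2 scale in the authors' deposited table, whose adjusted p were 0.00341 and 0.013. Skor2 encodes a SKI-family corepressor, and its called peak had the highest signal of the 11, with implied means of 70.3 and 38.1. The authors' deposited table lists this difference as -0.88 ± 0.26 (SE) on the log2 scale at an adjusted p of 0.0214. The start site nearest to that peak was of AC102081.1, not of Skor2. Its call falls out where a log2 fold change of at least 1 is required.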

How the data were processed

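ATAC-seq was measured in 6 libraries, 3 per group, grouped by the treatment label. The submitters' processing notes name fastp, Bowtie2, MACS2, featureCounts, HOMER 4.11 and ChIPseeker and the build mm10, with no parameters. The authors deposited, per peak, the mean normalized count over the libraries (a signal), the log2 fold change with its SE, a test score, a p-value and an adjusted p-value, per the file headers; the values per library, and so their depth and the spread within groups, are unknown here. MACS2 peak positions of the pooled libraries were given per group, per the labels. No test was rerun. The deposited score equalled log2 fold change over SE and the adjusted p-value equalled a Benjamini-Hochberg adjustment, so alternative centrings and filters recomputed p as a two-sided normal probability of that score. Tools were Python 3.11.15, pandas 2.3.3, scipy 1.17.1 and pysam 0.24.0. Start sites came from GENCODE M21 and sequences from the GRCm38 RefSeq assembly. The computations were tested on simulated data.

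The named peaks follow a rule: every called member peak, the strongest peak of a gene, the 5 uncalled peaks with the smallest p, and otherwise counts and ranges. Peaks named beyond it (at Nodal, Lefty1, Lefty2, Cer1 and Smad1, and of genes with many values of 1 sign) were chosen after their values were seen. The members, lists and motifs were chosen with earlier results of these data known. Intervals of shares cover counting error only. Alternatives were other centrings (all peaks, peaks in both lists, each of 10 GC groups), no filter or a mean of at least 5, a log2 fold change of at least 1, the nearest start site as the gene, other motif windows and a stricter list overlap.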

Additional observations from a re-analysis of the deposited data

How the results depend on the processing

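No paired analysis was possible because the deposited table gives 1 fold change per peak and no values per library, and for the same reason no library could be left out. The member calls numbered 8 to 13 under the 7 alternatives. Moving the median of all peaks to 0 gave 4 higher member calls, 3 lower calls at the wider pathway genes and 1958 higher calls in the table. Centring each of 10 GC groups, whose medians ran from -0.74 to 0.04, gave 7 higher member calls (2 at Ski and 1 each at Tgfbr1, Tgfbr2, Cer1, Grem1 and Lefty1), 2 lower and 8 higher at the wider pathway genes, and 1435 lower and 2080 higher in the table. A mean of at least 5 left 1 higher member call, since the weaker Ski peak fell under it. Assigning the nearest start site gave 5 lower member calls, because both Tgfbr2 peaks and the Smad6 peak went to other genes. A list overlap of 50% of both peaks put 40.8% of member peaks in both lists and 45.5% in the DMSO list alone. The OTX share was 4.31% within 50 bases of the midpoint and 7.84% over the whole peak. Of the values of the 15 peaks tracked singly, 66 kept their direction and side of the threshold and 6 gained a call. Another 2, both at Tgfbr2 under GC centring, lost their call, with log2 fold changes of -1.06 and -0.90. None reversed. The weaker Ski peak had no value where a mean of at least 5 was required, so its lost call is not in these counts. Where the causes are not given by the construction of an alternative, the cause was not tested. The median member peak had a mean normalized count of 9.32 and an SE of 0.63, and the smallest score called in the table was 3.01, which at that SE stands for a log2 fold change of 1.90; the smallest called in a member peak was 1.39.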
